A study of Mus musculus with 12 samples.

Results

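The genes described here make coenzyme Q or bind it. They are Coq2, Coq3, Coq4, Coq5, Coq6, Coq7, Coq9, Coq10a, Coq10b and Pdss1, taken by symbol from the annotation of the array, and 9 of these 10 were measured among 22180 genes with a value of their own. Pdss1, which encodes a subunit of the enzyme that makes the isoprenoid tail, has no expression value analysed here. The set was chosen by measured values, namely the level of Coq10b in these same 12 arrays, which stood apart from the other members between the genotypes, so the genotype differences of the members are given as a description and without p-values. RNA came from the livers of 6 wild-type (WT) and 6 Ppara KO mice, all adult C57Bl/6 females of 12 to 14 weeks kept on a light and dark cycle, with 1 Affymetrix MoGene-2_0-st array per animal. The labels name the knocked-out gene and give no agent, feeding state, litter, hour of collection or site of the disruption.

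Coenzyme Q, or ubiquinone, is a lipid in the inner mitochondrial membrane that takes up electrons from several dehydrogenases and hands them to complex III of the respiratory chain. Its ring comes from tyrosine by way of 4-hydroxybenzoate and its tail from the mevalonate pathway, the route that also supplies cholesterol. COQ2 joins ring and tail, and a group of enzymes held together in a complex then hydroxylates and methylates the ring. COQ10A and COQ10B belong to the START family of lipid-binding proteins, bind coenzyme Q and are needed for its normal use in respiration. PPARα, the product of Ppara, is a nuclear receptor that drives fatty acid oxidation in the liver, a process that feeds electrons into the coenzyme Q pool.

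All values are the authors' deposited log2 values, one transcript cluster per gene. The levels of different genes on the array are not comparable with each other, so only the same gene is compared between animals. Ppara itself ran from 7.71 to 8.14 in WT livers and from 7.81 to 8.16 in Ppara KO livers (log2, difference 0.032, 95% interval -0.15 to 0.21). The place of its probes relative to the disruption is unknown here, and this value therefore checks nothing about the labels. The liver label was checked on hepatocyte genes: the 9 measured markers, Alb and Ttr among them, had per-animal mean log2 values between 11.07 and 11.15 in WT and between 10.96 and 11.11 in Ppara KO, and limma called 0 of the 9 (1 at an unadjusted p under 0.05). Here a gene counts as called, in either direction, where a limma fit over all genes gave it an adjusted p under 0.05. For the members, whose values in this same contrast chose the set, a call only describes where a gene fell in that fit and is no test. That fit called 10.2% of the 22180 genes, 4.46% higher and 5.77% lower. The tissue was measured in bulk, so fewer cells of a type and less RNA per cell cannot be told apart.

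Coq10b was the member with the large difference. Its log2 values were 6.29, 6.41, 6.51, 6.62, 6.36 and 6.05 in WT animals 1 to 6, and 7.96, 7.68, 8.17, 7.55, 7.85 and 8.47 in Ppara KO animals 1 to 6. The highest WT animal, 6.62, stood below the lowest Ppara KO animal, 7.55. The mean rose from 6.37 ± 0.20 to 7.95 ± 0.34 (SD, n = 6 each), a difference of 1.57 ± 0.14 (log2, limma standard error, SE), which is 2.97-fold with a 95% interval of 2.42 to 3.66. Ordered by the size of the rise, Coq10b ranked 12 among all 22180 genes. With each animal left out in turn the difference stayed between 1.47 and 1.65.

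Coq10a encodes the closest relative of that protein and was measured by a cluster of its own. Its values were 6.98, 7.20, 7.16, 6.97, 6.91 and 7.03 in WT and 7.36, 7.34, 7.16, 6.96, 7.16 and 7.15 in Ppara KO. The animals of the genotypes overlapped, with 1 WT liver below every Ppara KO liver and 2 Ppara KO livers above every WT liver. The difference was 0.15 ± 0.080 (95% interval -0.026 to 0.32), which was not called. The deposited values do not show whether any probe matches both genes.

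**Figure D1:**
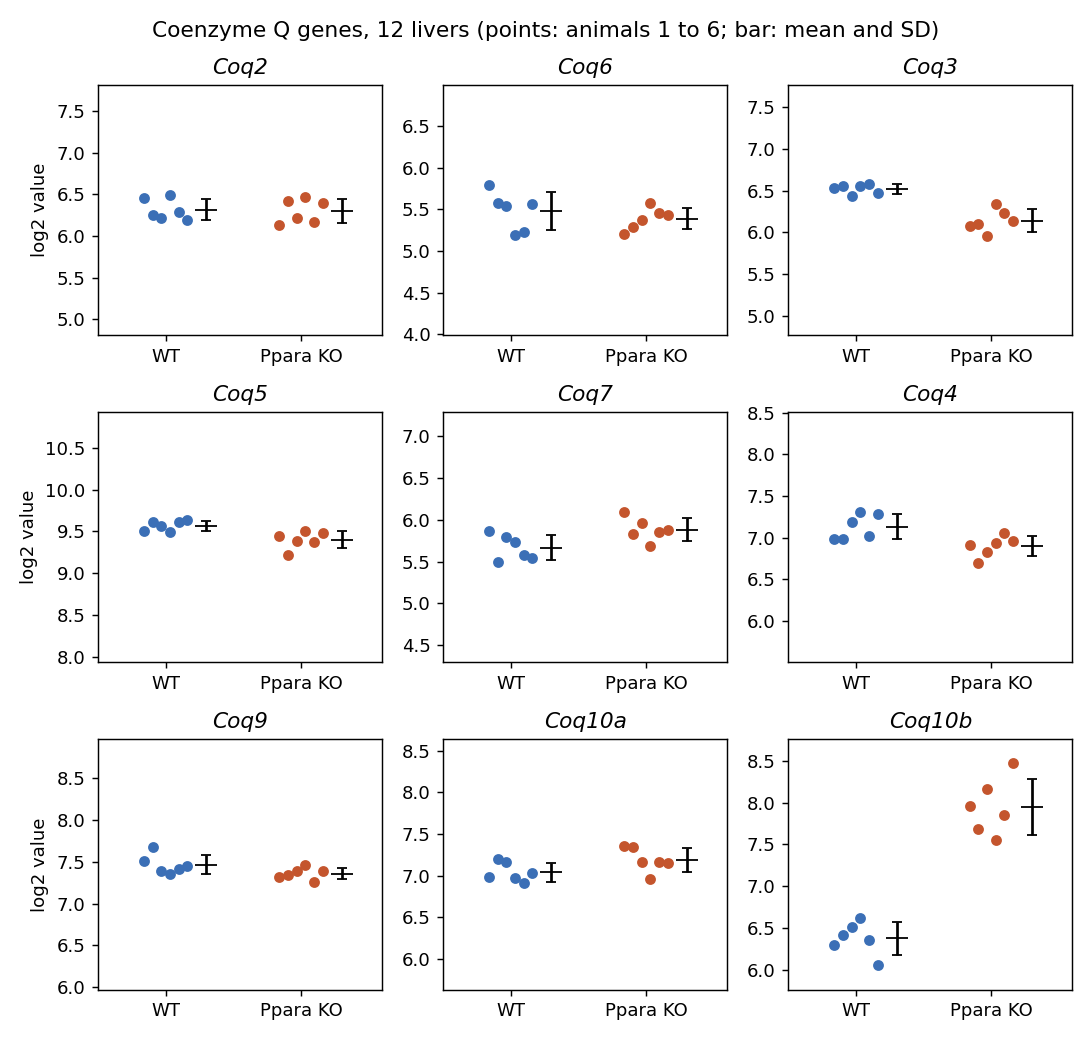
Log2 values of the 9 measured coenzyme Q genes in 6 WT (blue) and 6 Ppara KO (orange) livers, one panel per gene, each axis spanning the same log2 range; points are animals 1 to 6 from left to right and the bar shows mean and SD. Coq10b separates the genotypes by 1.57, Coq3 stands lower in every Ppara KO animal, and the other 7 genes overlap.

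The start regions of Coq10b and Coq10a are shown to set the called gene beside its relative, with that of Coq3, the other called member. RefSeq (GRCm38.p6) gave windows of 300 bases, 250 before and 50 after an annotated start, for 8 of the 9 measured members. They were searched on both strands for the E-box CACGTG, to which the clock factors CLOCK and BMAL1 bind, and for TTANNTAA, a loose form of the D-box bound by the clock output factors DBP, TEF and HLF. Capitals mark these matches.
Coq10b, chr1:55052520-55052819, plus strand: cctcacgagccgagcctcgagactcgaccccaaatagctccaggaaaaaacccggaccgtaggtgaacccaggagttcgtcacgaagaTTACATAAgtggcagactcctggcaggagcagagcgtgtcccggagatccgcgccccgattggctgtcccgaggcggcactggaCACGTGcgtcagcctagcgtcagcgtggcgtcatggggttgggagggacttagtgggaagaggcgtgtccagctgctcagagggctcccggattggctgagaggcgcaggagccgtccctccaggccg
Coq10a, chr10:128368931-128369230, minus strand: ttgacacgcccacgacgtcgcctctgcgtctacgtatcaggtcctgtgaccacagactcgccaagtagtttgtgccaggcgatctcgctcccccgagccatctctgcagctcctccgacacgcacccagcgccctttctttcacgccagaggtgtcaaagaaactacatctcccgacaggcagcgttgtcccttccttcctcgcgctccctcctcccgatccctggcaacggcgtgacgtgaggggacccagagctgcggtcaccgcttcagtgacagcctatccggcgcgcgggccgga
Coq10a, chr10:128369988-128370287, minus strand: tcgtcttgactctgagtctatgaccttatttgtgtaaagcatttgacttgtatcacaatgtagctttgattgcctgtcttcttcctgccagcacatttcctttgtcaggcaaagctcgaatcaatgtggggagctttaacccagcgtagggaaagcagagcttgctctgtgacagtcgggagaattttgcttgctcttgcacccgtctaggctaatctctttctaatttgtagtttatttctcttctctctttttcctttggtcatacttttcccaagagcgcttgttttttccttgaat
Coq3, chr4:21879396-21879695, plus strand: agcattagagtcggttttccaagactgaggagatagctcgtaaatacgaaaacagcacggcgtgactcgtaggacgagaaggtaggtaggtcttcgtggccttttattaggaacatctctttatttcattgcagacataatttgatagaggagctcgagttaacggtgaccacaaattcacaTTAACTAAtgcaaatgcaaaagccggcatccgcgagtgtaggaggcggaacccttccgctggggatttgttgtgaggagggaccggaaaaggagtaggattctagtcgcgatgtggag

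The Coq10b window held both motifs, the D-box match TTACATAA beginning 162 bases before the start and the E-box beginning 78 bases before it. Over all 32851 RefSeq windows, 7.15% held the E-box, 6.00% the D-box form and 0.234% both. Neither Coq10a window held one of them. The Coq3 window above held the D-box form as TTAACTAA, 68 bases before the start, and a second Coq3 window held none. Coq4 had an E-box 56 bases before its start, shown here with its flanks because it is the other E-box among the members.
Coq4: ggcaaacgaacCACGTGacctcactcca

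Further searches covered TGACG, the half-site of the cAMP response element, AGGTCA, a nuclear receptor half-site, and the direct repeat bound by PPARα with its partner RXR, in a form that leaves 3 of its bases free. TGACG occurred 4 times in the Coq10b window, beginning 173, 72, 61 and 50 bases before the start. The matches at 72, 61 and 50 bases lie close together at even spacing. At least 4 occurrences were found in 0.231% of all windows and at least 3 in 1.035%. The cut-off of 4 equals the count in Coq10b itself, so its share is a description only. At least 1 TGACG was found in 6 of the 10 windows of measured members and in 20.8% of all windows. Besides Coq10b these were Coq10a, 16 bases before the start, Coq9 with 2, Coq2, Coq6 and Coq7. In Coq10b one of the 4 directly follows the E-box without sharing a base. The nuclear receptor half-site was absent from the Coq10b window and present in 16.3% of all windows. It was found in one window each of Coq10a, Coq4 and Coq7, in Coq4 sharing bases with the E-box, and also in the window of Pdss1, 247 bases before the start. The direct repeat was in 0 of the 10 windows of measured members and in 0.381% of all windows. A match describes letters in a window and says nothing about binding.

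Of the 5 ring enzymes 1, Coq3, was called lower and 4 were not called, beside 5.77% of all genes called lower. Coq3 encodes the O-methyltransferase of the pathway. Its values were 6.53, 6.56, 6.43, 6.56, 6.58 and 6.47 in WT and 6.07, 6.10, 5.95, 6.34, 6.23 and 6.14 in Ppara KO. Every Ppara KO liver stood below every WT liver. The mean fell from 6.52 ± 0.057 to 6.14 ± 0.13 (SD, n = 6 each), a difference of -0.38 ± 0.070 or 1.30-fold (95% interval 1.18 to 1.45).

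Coq2, which encodes the prenyltransferase that joins ring and tail, had values of 6.46, 6.25, 6.22, 6.49, 6.29 and 6.19 in WT and 6.13, 6.42, 6.22, 6.47, 6.17 and 6.40 in Ppara KO. The ranges nearly coincided, and the difference of -0.014 ± 0.082 had an interval of -0.19 to 0.16. Coq6, a flavin-dependent ring hydroxylase gene, had the widest spread of the ring enzymes among WT animals, 5.19 to 5.79 with a median of 5.55, against 5.21 to 5.57 with a median of 5.40 in Ppara KO. Its difference of -0.096 ± 0.10 was not called.

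Coq5 encodes the C-methyltransferase. It had values of 9.51, 9.61, 9.56, 9.49, 9.61 and 9.64 in WT and 9.45, 9.22, 9.39, 9.50, 9.37 and 9.48 in Ppara KO. The highest Ppara KO animal, 9.50, exceeded the lowest WT animal, 9.49, by very little, and the other 5 lay below all WT animals. The difference of -0.17 ± 0.065 (95% interval -0.30 to -0.029) was not called over all genes. It was called when the fit was limited to genes at or above the median level. That limited fit held fewer genes and called more of them, 1258 higher and 1544 lower against 989 and 1279.

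Coq7, the gene of the last ring hydroxylase, had a positive difference. Its values were 5.87, 5.49, 5.79, 5.73, 5.58 and 5.54 in WT and 6.09, 5.83, 5.96, 5.69, 5.85 and 5.88 in Ppara KO. The genotypes overlapped, and the difference of 0.22 ± 0.085 (95% interval 0.035 to 0.40) was not called.

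The remaining measured members, Coq4 and Coq9, support the biosynthetic complex, and neither was called. Coq4, needed for the biosynthetic complex, had values of 6.99, 6.99, 7.19, 7.31, 7.02 and 7.28 in WT and 6.91, 6.70, 6.83, 6.94, 7.06 and 6.96 in Ppara KO. Only Ppara KO animal 5 reached into the WT range. The difference was -0.23 ± 0.082 (95% interval -0.40 to -0.054), not called over all genes. It was called among genes at or above the median level, a fit that called more genes in all, 1258 higher and 1544 lower. Coq9 encodes a lipid-binding partner of COQ7. It ranged from 7.36 to 7.68 (median 7.43) in WT and from 7.26 to 7.46 (median 7.36) in Ppara KO, with a difference of -0.11 ± 0.068 that was not called.

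Of the 9 measured members 1 was called higher, Coq10b, 1 was called lower, Coq3, and 7 were not called, beside 10.2% of all genes called; these counts come from the values that chose the set, and nothing is read from them. In 2 of the 9, Coq10b and Coq3, the genotypes did not overlap, as in 6.51% of all genes. Without Coq10b, the other 8 had differences from -0.38 to 0.22 with a median of -0.10, and 6 were negative. Over all genes the median difference was 0.0090. Animal-to-animal deviations from the genotype means were compared between members: over the 36 pairs of members, Pearson's r across the 12 arrays ran from -0.57 to 0.54 with a median of 0.0041, and 19 pairs were positive. These pairs share arrays and are given as a description.

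Genes of and around the pathway, together with other START-domain genes, were taken from 6 lists with 60 measured genes. Of these 2 were called higher and 6 lower, beside 4.46% and 5.77% of all genes. Stard5, called higher, and Stard13, called lower, came from the START-domain list, which was drawn up by protein domain. The largest differences were in Coq8a, in the pathway itself, and in Etfdh, which delivers electrons to coenzyme Q. Coq8a encodes an atypical kinase-like protein that supports the biosynthetic complex. Its log2 values were 9.35, 9.50, 9.44, 9.04, 9.09 and 9.53 in WT and 8.02, 8.43, 7.93, 8.54, 8.15 and 8.20 in Ppara KO. No Ppara KO liver reached the lowest WT value of 9.04. The gene fell by 1.11 (SE 0.12), which is 2.16-fold (95% interval 1.82 to 2.57, limma adjusted p = 2.31e-05).

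Its relative Coq8b ran from 6.03 to 6.61 (median 6.40) in WT and from 5.92 to 7.10 (median 6.13) in Ppara KO, with a difference of -0.023 ± 0.17 that was not called. Fdx1, a mitochondrial ferredoxin gene, rose by 0.40 ± 0.094 (adjusted p = 0.0123 by limma), from 6.87 to 7.26 in WT to 7.20 to 7.72 in Ppara KO. Pdss2, which encodes the partner of PDSS1 in tail synthesis, had a difference of -0.22 ± 0.079 without a call (limma adjusted p = 0.0912). In this list of 9 measured genes 1 was called higher and 1 lower.

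**Figure D2:**
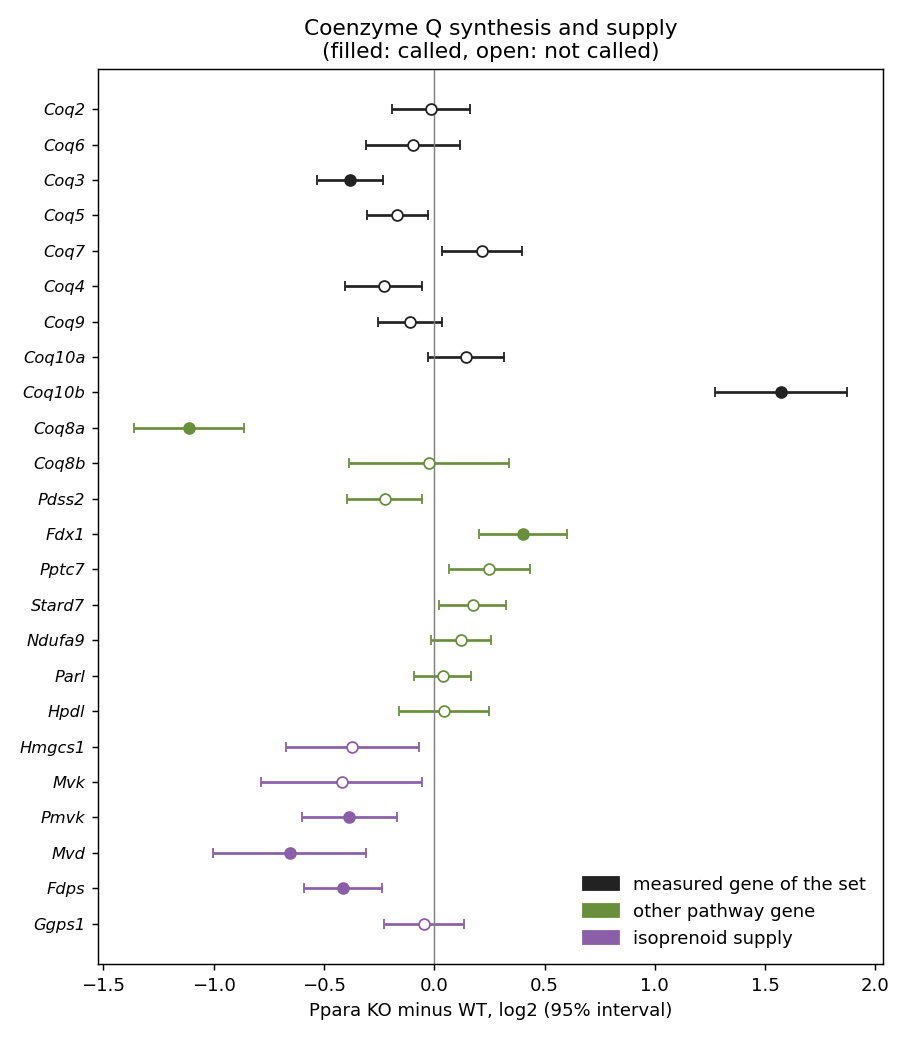
Difference Ppara KO minus WT on the log2 scale with its 95% interval. Black marks the 9 measured coenzyme Q genes, green 9 other genes of and around the pathway, and violet 6 genes of isoprenoid supply. Filled symbols are called at an adjusted p under 0.05. Coq10b lies at 1.57 and Coq8a at -1.11, and the other differences lie between -0.65 and 0.40.

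Of the 6 measured mevalonate pathway genes that lead to the tail precursor, 3 were called lower and 0 higher, with all 6 differences negative and a median of -0.40. Fdps, the farnesyl diphosphate synthase gene, fell by 0.41 (SE 0.083, limma adjusted p = 0.00460), Mvd, a decarboxylase gene, by 0.65 (SE 0.16, limma adjusted p = 0.0178) and Pmvk, a kinase gene, by 0.38 (SE 0.10, limma adjusted p = 0.0244). The call of Pmvk ended without any 1 of 5 animals, WT 1, 3 and 6 and Ppara KO 3 and 5. Ggps1, which encodes geranylgeranyl diphosphate synthase, had a difference of -0.048 ± 0.085. On the ring side, 0 of 7 measured genes of tyrosine and tetrahydrobiopterin metabolism were called by limma (1 at an unadjusted p under 0.05), Tat and Hpd among them, and their differences ran from -0.17 to 0.18.

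Among 13 measured genes of enzymes that reduce coenzyme Q, 1 was called lower and 0 higher. This was Etfdh, which passes electrons from fatty acid oxidation to coenzyme Q. It stood at 10.64, 10.48, 10.46, 10.52, 10.61 and 10.44 in WT and 9.36, 9.43, 9.43, 9.65, 9.57 and 9.48 in Ppara KO. The genotypes were far apart relative to their spread, with a fall of 1.04 (SE 0.068), or 2.05-fold (limma adjusted p = 1.71e-07). The 4 genes of succinate dehydrogenase, Sdha, Sdhb, Sdhc and Sdhd, were not called, with differences of 0.16, 0.043, -0.14 and -0.078. Of 11 measured complex III genes, whose products oxidise coenzyme Q, 0 were called by limma (3 at an unadjusted p under 0.05), with differences from -0.22 to 0.22.

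**Figure D3:**
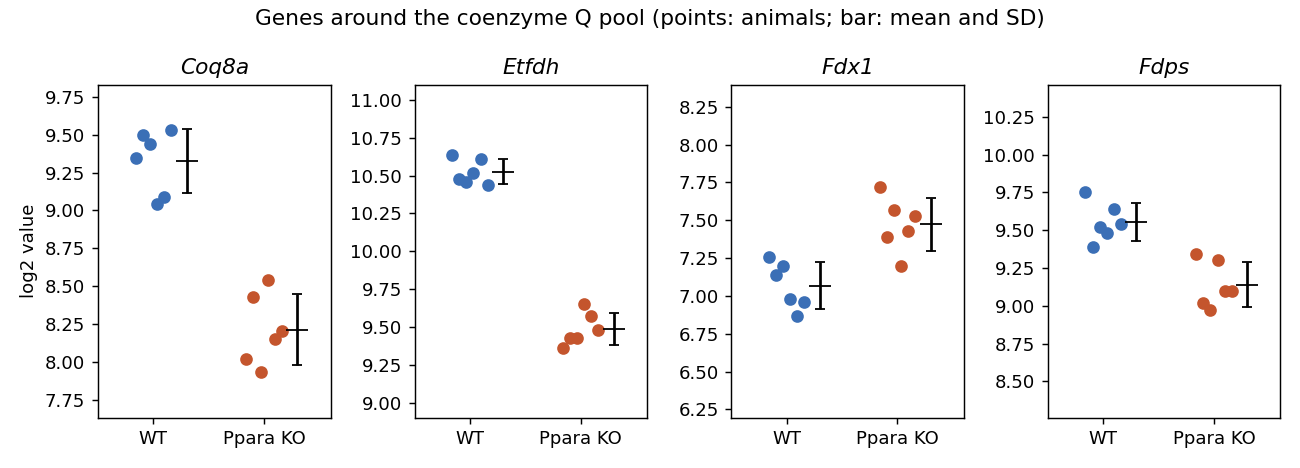
Log2 values of Coq8a, Etfdh, Fdx1 and Fdps in 6 WT (blue) and 6 Ppara KO (orange) livers, each axis spanning the same log2 range; points are animals 1 to 6 from left to right and the bar shows mean and SD. Coq8a, Etfdh and Fdps do not overlap between the genotypes, and Fdx1 rises with a small overlap.

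Of 15 other START-domain genes 1 was called higher and 1 lower. Stard5, a sterol-binding START gene, rose by 0.37 ± 0.073 (limma adjusted p = 0.00460), and Stard13, another START gene, fell by 0.39 (SE 0.10, limma adjusted p = 0.0215). The differences of the 15 genes ran from -0.39 to 0.37. Whether Coq10b differs from this list was not tested.

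Genes of the circadian clock differed between the genotypes. All 12 measured clock output genes with E-boxes were called higher and 4 of 5 measured genes of the BMAL1 side lower. Their mean log2 value was 5.76 to 6.16 in WT livers against 7.44 to 8.08 in Ppara KO livers for the first list, and 7.84 to 8.03 against 5.80 to 6.73 for the second. Clock state and genotype cannot be told apart as sources of the Coq10b difference by comparing the genotypes. Within a genotype, Coq10b was therefore set against Dbp, Per3, Arntl and Npas2 and against the other 8 measured members, 24 relations in all.

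Among Ppara KO livers, Coq10b was higher where Per3, a period gene, was higher (r = 0.84, exact permutation p = 0.0389, Spearman's coefficient = 0.77, exact permutation p = 0.103, n = 6). The value of r was 0.95 without the 2 animals farthest from the median of Per3. Each r of this kind covers fewer animals and a narrower range of the gene, and is a description only. Coq10b was lower where Arntl, the gene of BMAL1, was higher (r = -0.78, exact permutation p = 0.0472, Spearman's coefficient = -0.89, exact permutation p = 0.0333, n = 6), with r = -0.71 without the 2 farthest animals. For Dbp the values were r = 0.62 and Spearman's coefficient = 0.77 (exact permutation p = 0.142 and 0.103, n = 6), and r dropped to 0.20 without the 2 farthest. Npas2, whose product can stand in for CLOCK beside BMAL1, had r = -0.21 and Spearman's coefficient = -0.37 (exact permutation p = 0.736 and 0.497, n = 6), with r = -0.40 without the 2 farthest. After Benjamini-Hochberg adjustment 0 of 24 relations passed 0.05 and 2 did before it, with 0.567 for both Per3 and Arntl by the exact permutation test of r. A single relation over 6 animals could not go below 0.0667 after that adjustment.

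Among WT livers, Per3 and Arntl spanned narrow ranges, 4.14 to 4.60 and 8.34 to 8.67, and their r with Coq10b was 0.11 and -0.24 (exact permutation p = 0.808 and 0.683, n = 6, both tests 2-sided as all of these). Spearman's coefficient was -0.20 and -0.43 (exact permutation p = 0.714 and 0.419), and r without the 2 farthest animals was 0.25 and -0.53. In Ppara KO the same genes spanned 7.03 to 7.88 and 5.04 to 7.01. Dbp had r = 0.044 in WT (exact permutation p = 0.983, Spearman's coefficient = -0.086, exact permutation p = 0.919, n = 6), and -0.24 without the 2 farthest animals. Npas2 had r = -0.82 in WT (exact permutation p = 0.0972, Spearman's coefficient = -0.66, exact permutation p = 0.175, n = 6). Without the 2 farthest animals r was 0.098. The remaining WT livers spanned only 7.68 to 7.70 in Npas2, too narrow a range to show whether the relation held. Whether the relations differ between the genotypes was not tested.

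**Figure D4:**
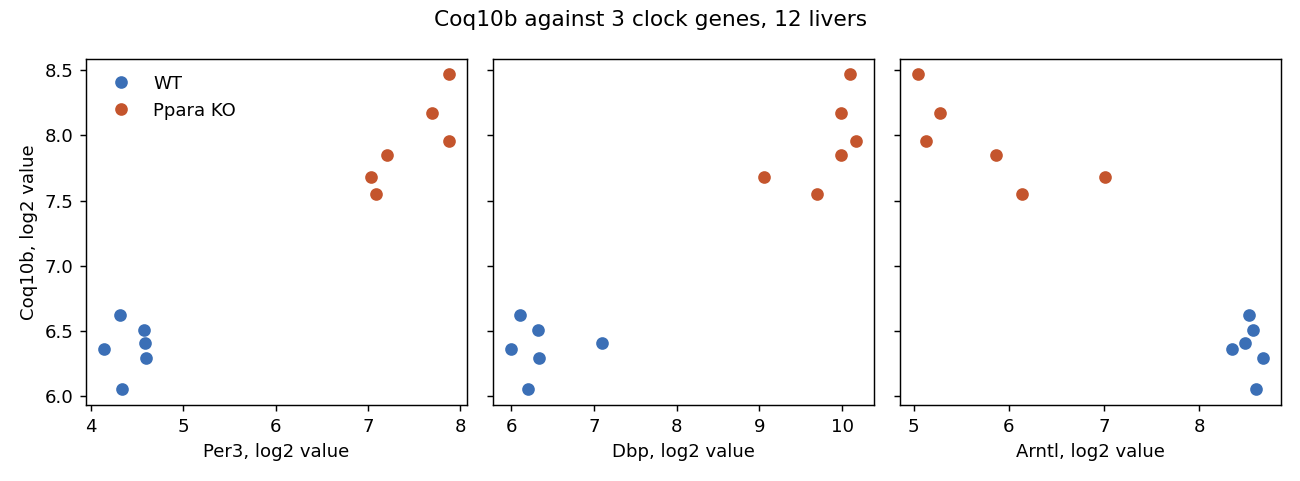
Coq10b against Per3, Dbp and Arntl, log2 values, with each point one liver of 6 WT (blue) or 6 Ppara KO (orange). The genotypes form separate clusters on every axis, and within Ppara KO the r of Coq10b was 0.84 with Per3, 0.62 with Dbp and -0.78 with Arntl.

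The genes most like Coq10b in their animal-to-animal course were sought among 11089 genes at or above the median level, by Pearson's r of the deviations from the genotype means over the 12 arrays, with r above 0.5 in each genotype. This likeness is a description over arrays that share their preparation, and 324 genes met the condition in each genotype. Genes with provisional symbols (such as Gm, LOC and Rik) and genes of microRNA, small nucleolar RNA and olfactory receptors were then left out. The 10 highest of those kept had r of 0.85 to 0.96. Mknk1, the gene of a kinase that phosphorylates the cap-binding factor eIF4E, led with 0.96 (0.94 in WT and 0.97 in Ppara KO), followed by the ubiquitin ligase gene Mkrn1 (0.90) and the vitamin transporter gene Slc5a6 (0.88). Bclaf1, Ubn2, Scamp1, Khdc4, Sugct, Dclre1a and Nudcd2 made up the rest. The 10 genes were not alike in their genotype differences: 4 of the 10 were called higher in Ppara KO, 2 lower, and 4 not, and Mknk1 differed by 0.18 ± 0.078 without a call. Slc5a6 rose by 0.63 ± 0.10 and Scamp1, a membrane trafficking gene, by 0.50 ± 0.082 (limma adjusted p = 0.00122 and 0.00120), while Sugct, a mitochondrial CoA-transferase gene, fell by 0.40 (SE 0.079, limma adjusted p = 0.00439).

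Markers of other tissues moved with part of the animals. The mean log2 value of 8 measured adipocyte markers was 5.43, 6.14 and 6.17 in WT 1, 3 and 5, and 4.60 to 4.90 in WT 2, 4 and 6, against 4.50 to 4.77 in Ppara KO. Among these 8 markers 2 were called lower and 1, Pparg, higher. Without WT 1, 3 and 5 the differences were 1.59 for Coq10b, -0.39 for Coq3, -1.14 for Coq8a and -0.99 for Etfdh, and the calls of Coq8a and Etfdh held. The calls of Fdps (-0.33, limma adjusted p = 0.0894), Pmvk (-0.35, limma adjusted p = 0.0951) and Stard5 (0.32, limma adjusted p = 0.0878) ended without these 3 animals. Of 7 measured cell cycle genes 6 were called lower. The mean of the 7 was 5.28, 5.58 and 5.59 in WT 1, 2 and 3 and 4.61 to 4.70 in WT 4, 5 and 6. In Ppara KO livers it was 4.01 to 4.32. The part of these genes in the member values was not tested. Limma called 1 of 8 Kupffer cell markers higher (Cd5l, 0.45 ± 0.13), 1 of 5 lymphocyte markers higher (Cd8a, 0.46 ± 0.10) and 2 of 4 cholangiocyte markers lower (Krt19, -0.26 ± 0.070, and Sox9, -0.39 ± 0.11), and their part was not tested either. Ppara KO animal 2 stood apart on the Kupffer cell list, with a mean of 8.33 against 7.59 to 7.82 in the other Ppara KO animals. Of 10 muscle, 7 endothelial and 7 stellate cell markers it called 0, with 1, 3 and 3 at an unadjusted p under 0.05.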

How the data were processed

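The authors deposited log2 values of 12 arrays, 1 per animal, made with RMA (background correction, normalization between arrays and summary per transcript cluster) with Partek as software, per the submitters' processing notes; versions are not given in the sources used here. RMA gives all arrays nearly one distribution (medians 4.13 to 4.17), so a shift shared by most genes cannot be seen, and it compresses the folds of dim genes. With 6 arrays a genotype setting the precision, a difference had a median SE of 0.0926 over all genes. The table held 41345 clusters, 23521 with 1 gene symbol in the platform annotation, 1814 with several and 16010 with none listed; 0 symbols needed an update through RefSeq GRCm38.p6. The cluster with the highest mean stood for a gene, and each measured member had 1 cluster.

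All 22180 genes were fitted with limma 3.58.1 (R 4.3.3; lmFit and eBayes, 2-sided, 1 mean per genotype, no covariate) after a test on simulated data, with Benjamini-Hochberg adjustment over all genes. Correlations used exact permutation over pairings (SciPy 1.17.1). The set of genes, the lists, the motifs and the tests were chosen with earlier results of these data known. The genes named are the members, every called gene of the 6 lists, 4 clock genes, and the 10 genes most like Coq10b after the exclusions given above. Other names were added after their values were seen. Alternatives covered the variance prior, array weights, renormalization, centring, dim genes, the choice and number of clusters, a stricter threshold, the animal number as a block, and animals left out. Scanner files, and with them background correction and array batches, were not used here.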

Additional observations from a re-analysis of the deposited data

Results flagged for a closer look

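For 31 named genes each genotype was searched for 1 animal far from the other 5, by Dixon's test of the gap over the range, which chance gives in about 5% of groups. It was found in 4 of 62 groups and in none of the 9 members' groups. Dbp was at 7.09 in WT animal 2, against 5.99 to 6.33 in the other WT animals. Npas2 was at 7.95 in WT animal 6, against 7.60 to 7.70, and at 4.63 in Ppara KO animal 5, against 4.05 to 4.23. Stard13 was at 6.05 in Ppara KO animal 3, against 6.35 to 6.46.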

How the results depend on the processing

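Over the 22 alternatives the difference of Coq10b ran from 1.47 to 1.65 and that of Coq3 from -0.42 to -0.35, given as a description since these values chose the set. Coq8a (-1.18 to -1.06) and Etfdh (-1.07 to -0.99) were called lower under each of them. Members called lower numbered 2 with an intensity trend and robust prior (Coq5 added), against 1. They numbered 3 when only genes of at least median level were fitted (Coq4 and Coq5 added). Both settings called more genes in all, 1189 higher and 1492 lower with the prior. With the filter 1258 were called higher and 1544 lower, from fewer genes fitted. The 2 genes of the 6 lists called higher became 5 under that filter, 1 at an adjusted p under 0.01 and 1 without WT animals 1, 3 and 5. The 6 called lower became 3 at an adjusted p under 0.01. Over all genes 989 were called higher and 1279 lower, against 418 and 652 at an adjusted p under 0.01, 390 and 618 without WT animals 1, 3 and 5, and 657 higher with every transcript cluster tested. Leaving out 1 animal gave 755 to 930 higher and 1029 to 1238 lower. The cause of these shifts was not tested beyond the stricter threshold and the fewer animals themselves.

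Coq2 changed sign to 0.014 with quantile normalization and ran from -0.048 to 0.021 with 1 animal left out. Without the 2 farthest animals, r with Coq10b changed sign in Ppara KO for Coq2 (0.11), Coq3 (0.075), Coq4 (-0.055), Coq6 (0.51), Coq9 (0.76) and Coq10a (-0.72), and in WT for Coq10a (-0.57), Dbp (-0.24) and Npas2 (0.098). With the animal number as a replicate block 687 genes were called higher and 985 lower. Members (1 and 1) and genes of the 6 lists (2 and 6) kept their counts. The deviations of same-numbered animals had r of -0.057 to 0.094, and the own number was highest in 3 of 6. Whether the number pairs animals was not tested.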

Other observations

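Ppara KO animals 2 and 4 had the lowest Coq10b of their genotype, 7.68 and 7.55, the highest Coq8a, 8.43 and 8.54 against 7.93 to 8.20 in the other 4, and the highest Arntl, 7.01 and 6.14 against 5.04 to 5.86. Animal 2 was also the one with the highest mean of the Kupffer cell markers, 8.33 against 7.59 in animal 4. These values were set side by side after they had been seen, and no test was run.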
